A study of Mus musculus with 24 samples.

Results

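The genotype difference of cardiomyocyte (CM) nuclei was followed across the first 2 weeks of life as one average over the 3 postnatal days P1, P7 and P14. All libraries of Casp2-depleted hearts were compared with all libraries of control hearts, with the day as a blocking term, to look for differences of the same direction at every day. Such an average can also be carried by a single day, so day values are given beside it for many genes. Of the 24 libraries of the series, 21 entered this comparison, 10 from control and 11 from Casp2-depleted hearts. The 3 libraries that the study set aside for low quality (control replicate 1 of P1, control replicate 3 of P14 and depleted replicate 1 of P14) were left out of the comparison and used only where named. Control mice were XMLC2-Casp2fl/fl and Casp2-depleted mice XMLC2+Casp2fl/fl, on a C57BL/6N background. Every mouse of both groups carried the floxed Casp2 allele in both copies, and only the depleted mice carried the XMLC2-Cre transgene, whose promoter is active in CMs, so that the presence of Cre and the loss of Casp2 cannot be told apart. Animals were used without regard to sex. Nuclei of snap-frozen ventricles were stained for PCM1, a centriolar satellite protein that coats CM nuclei, and sorted by flow cytometry. Each library was made from a pool of 15 hearts at P1, 6 at P7 and 2 at P14. There were 3 control and 4 depleted libraries at P1, 4 and 4 at P7, and 3 and 3 at P14. The spread between libraries is therefore a spread between pools of hearts.

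Caspase-2 is the protease of the PIDDosome, a complex built with the scaffold protein PIDD1 and the adaptor RAIDD, which the gene Cradd encodes. The complex is activated at extra centrosomes, to which PIDD1 is recruited through ANKRD26, and caspase-2 then cleaves MDM2, the ligase that keeps p53 low. Stabilised p53 induces p21 (Cdkn1a), and the cell stops dividing as a polyploid cell. This route was described in cancer cells and in the liver. For CMs the study reports that the PIDDosome limits ploidy without a need for p53 but with a role for p21. CMs leave the cell cycle in the first postnatal days and weeks, when many duplicate their DNA without completing cytokinesis, exchange fetal for adult sarcomere isoforms and turn from glycolysis to fatty acid oxidation. The comparison asks which transcripts in CM nuclei differ with Casp2 throughout this period rather than at one of its stages.

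Between 891817 and 2924097 reads per library fell on genes, with a median of 1452114. Between 34.3% and 76.1% of the uniquely placed reads fell on no gene, and 7628 to 17770 genes were detected per library. None of 6 such measures of library quality differed between the genotypes in an exact two-sided permutation test that rearranged genotype within day (p between 0.412 and 0.967, adjusted p of 0.967 for all 6, where 49000 rearrangements allow a smallest p of 4.08e-05). The libraries carried the transcripts of CMs: Ryr2, Ttn, Myh6, Tnnt2 and Mybpc3 had reads in all 21, and the 15 CM markers together took 16157 to 98119 RPM (reads scaled to the library's total on genes) in control and 18992 to 89066 in depleted libraries. Markers of fibroblasts summed to 96.7 to 569 RPM, of endothelial cells to 245 to 1482 and of macrophages and leukocytes to 97.5 to 572. Mural cells reached 542 RPM, Schwann cells and neurons 744, epicardial cells 190 and erythroid cells 110, and the genotypes overlapped in each. The endothelial Egfl7 and the leukocyte genes Cd68, Itgam and Cd74 had 0 reads in all 21 libraries. Other markers of these types, the endothelial Pecam1, Ptprb and Erg and the leukocyte Cx3cr1 and F13a1, had reads in all 21. In such bulk libraries fewer nuclei of a type and less RNA per nucleus cannot be told apart.

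Casp2 itself was barely covered. It had 9 reads in 3 control libraries and 8 reads in 2 depleted libraries, all at P7, where the control libraries held 2.61, 2.16, 0.655 and 0 CPM (counts scaled likewise, with TMM factors) and the depleted libraries 2.34, 2.38, 0 and 0. The 3 reads that a library with no read still allows correspond to 1.40 to 2.38 CPM, so that a loss of Casp2 RNA was not detectable at this depth. The reads are tags from the 3′ ends of transcripts and of internal priming sites, and the position of the floxed exons was not used here, so that these reads do not check the deletion.

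No gene was called over all days. A gene was called if its log2 fold change exceeded 1 in size and its adjusted p lay below 0.05 (edgeR quasi-likelihood test, 20368 genes tested, n = 10 control and 11 depleted libraries). Of these genes 0 passed, which is 0% of the genes. The smallest adjusted p was 0.465, and the smallest unadjusted p was 2.39e-05. At an unadjusted p below 0.05 there were 836 genes (4.10%), of which 428 (2.10%) were fitted higher and 408 (2.00%) lower in depleted nuclei. DESeq2 called 2 genes, limma-voom with the same scaling factors 2 and limma-voom with quantile normalization 1, with no gene shared by these lists. An edgeR fit that averaged the group means equally over the days called 7, of which Gm9871 was also called by DESeq2. The fitted differences were spread evenly around no change, with 10378 genes higher and 9990 lower and a median log2 fold change of 0.02.

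Most of the genes with a low p were rare transcripts. Their median level was 2.43 CPM, against 13.8 CPM for all genes tested, and 693 of the 836 (82.9%) had no reads in 50% or more of the libraries, against 7057 (34.6%) of all genes. Of the 836 genes, 343 had 0 reads in all libraries of one genotype, and all 343 genes of that kind among those tested had p below 0.05. Of the 20025 genes with reads in both genotypes, 493 (2.46%) had such a p. The spread between libraries was wide, with a common biological coefficient of variation of 1.57 and a median standard error of 1.23 on the log2 scale. In the 1798 genes with a mean of at least 100 CPM the median fitted standard error was 0.41. For some of these genes it was smaller than the spread between pools, as in Malat1 below.

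**Figure D1:**
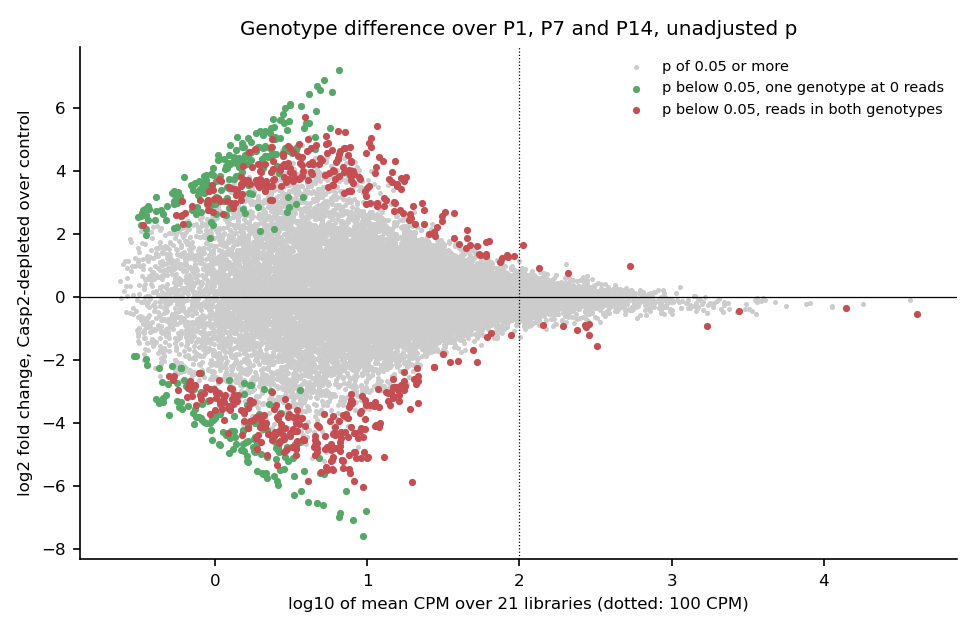
Each point is one of the 20368 genes tested, with the log10 of its mean CPM over 21 libraries on the x axis and its fitted log2 fold change (Casp2-depleted over control, all days) on the y axis. Genes with p below 0.05 are green where one genotype had 0 reads and red where both had reads. They sit mostly at the low end, and among the 1798 genes of at least 100 CPM only 16 are coloured.

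Transcripts without reads in one genotype are best given as counts, since a fold change against a group without reads is only a lower bound (computed here against 3 reads over that group). Among the 8 genes with the smallest p on the higher side, Gm47466 had 221 reads in 6 of 11 depleted libraries and 0 in the 10 control libraries, a level at least 60.6-fold higher. Clip3, a microtubule linker protein of the trans-Golgi, had 188 reads in 5 depleted libraries and 0 in control (at least 51.6-fold higher), of which P1 Casp2-depleted replicate 3 alone held 125 (84.6 CPM). Tex36 was at least 37.6-fold higher. Trim31, a ubiquitin ligase, was at least 25.8-fold higher from reads in 3 libraries. Among the 8 on the lower side, the small nuclear RNA gene Gm25672 had 284 reads in 6 of 10 control libraries and 0 in all depleted ones, at least 115-fold lower. Car2, which encodes carbonic anhydrase 2, had 274 reads in 4 control libraries and 0 in the depleted ones (at least 111-fold lower), of which P14 control replicate 4 alone held 206 (156 CPM). Ctxn3 was at least 82.6-fold lower, with 143 of its reads (101 CPM) in P14 control replicate 1. Rbpjl, a paralog of the Notch transcription factor Rbpj, was at least 64.8-fold lower, with most of its reads in 3 pools, at 34.9 and 23.8 CPM at P1 and 35.0 CPM at P7. All 16 had an adjusted p of 0.465 in edgeR, and none was detected in every library of the genotype in which it was found.

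One gene kept its genotypes apart at every day. In A330032B11Rik the libraries of the genotypes did not overlap at P1, at P7 or at P14, in one direction, which is 1 of 20368 genes (0.00491%). It is a long noncoding RNA (lncRNA) gene on the plus strand at chr19:37151243-37173940 (GRCm39) and lies wholly within Cpeb3, an RNA-binding regulator of translation, which runs on the minus strand from 36996743 to 37186000. At P1 it measured 129, 69.0 and 70.7 CPM in control and 58.3, 18.2, 21 and 17.0 CPM in depleted libraries. At P7 the values were 71.6, 54.0, 57.6 and 128 CPM in control and 38.8, 13.5, 22.0 and 33.0 CPM in depleted libraries. At P14 they were 146, 78.0 and 47.1 CPM in control and 27.5, 0 and 0 CPM in depleted libraries. Control levels were thus much alike at the 3 days, with means of 89.7 ± 34.4 (SD, n = 3), 77.9 ± 34.4 (n = 4) and 90.2 ± 50.4 CPM (n = 3), and the depleted means were 28.6 ± 19.9 (n = 4), 26.8 ± 11.3 (n = 4) and 9.17 ± 15.9 CPM (n = 3). The log2 fold change over all days was -2.05 ± 0.68 (SE), with p = 0.00297 (n = 10 and 11) and an adjusted p of 0.465 in edgeR, rank 127 among all genes. By day it was -1.64, -1.53 and -3.29. If genotype made no difference, rearrangement within day would part a gene at all 3 days in one direction with a probability of 4.08e-05. The share of 0.00491% found is close to that.

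The difference in A330032B11Rik did not pass the test across all genes. It kept its sign when each library was left out in turn (log2 fold change of -2.35 to -1.82). Of the libraries set aside by the study, the P1 control held 29.0 RPM of A330032B11Rik, within the depleted range, and both P14 libraries held 0. That P1 control had 0.917% of its reads on mitochondrially encoded genes and 9.21% of its uniquely placed reads on no gene, against at most 0.260% and at least 34.3% in the libraries used. The set-aside P14 control detected 2049 genes and the P14 depleted library 4285, against at least 7628 in each library used, so that a level of 0 in them says little. With all 24 libraries no gene kept its genotypes apart at all 3 days. Whether reads were counted by strand is not given in the sources used here, so reads of A330032B11Rik and of intron sequence of Cpeb3 cannot be told apart without it. Cpeb3 had a log2 fold change of -0.47 ± 0.37, with overlapping values.

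**Figure D2:**
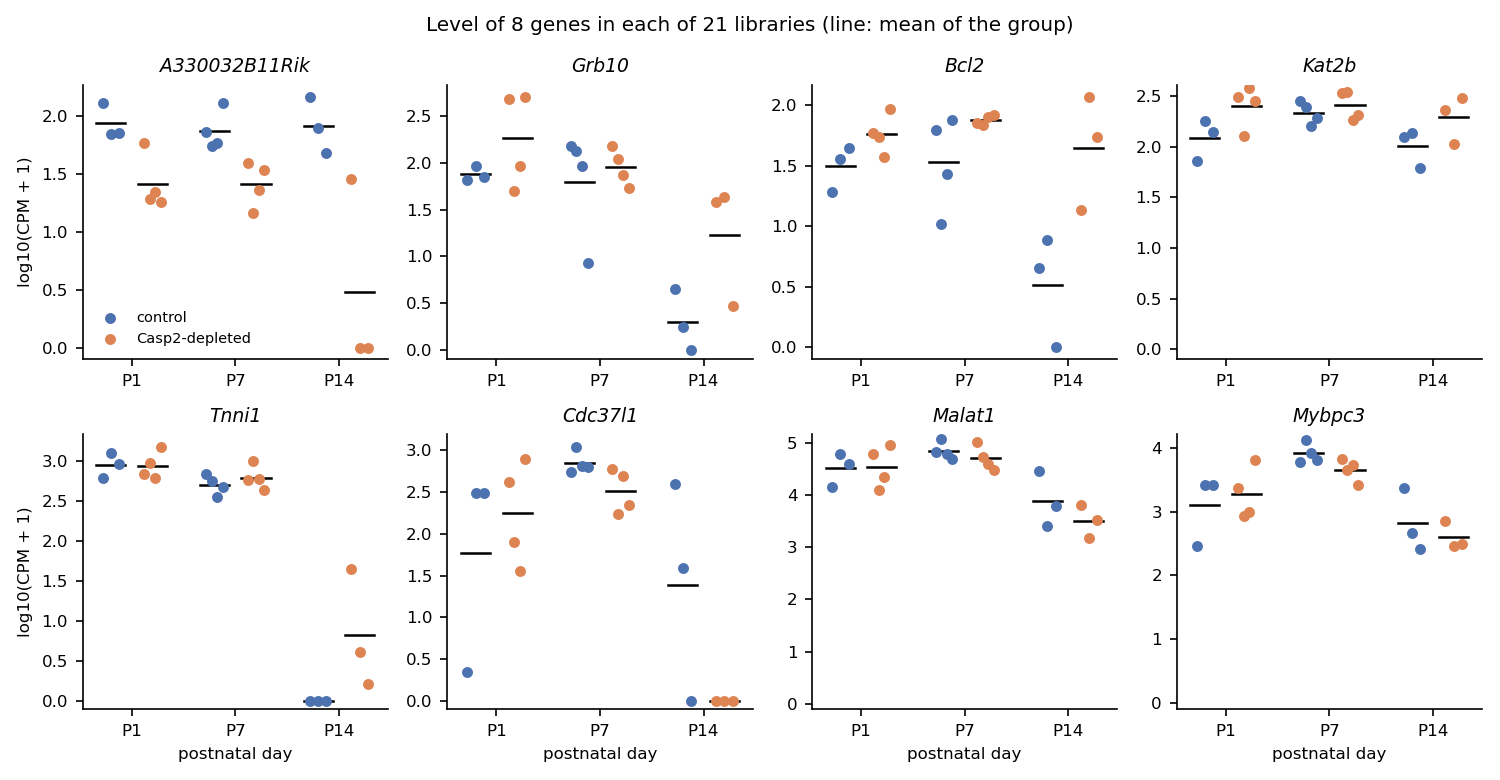
Levels of 8 genes in each of the 21 libraries, as log10(CPM + 1), by day and genotype. Each point is a library (a pool of hearts) and each line the mean of its group on that scale, and the y axis differs between genes. A330032B11Rik is the one gene whose control points lie above the depleted points at all 3 days, while the points of Tnni1 part at P14 only and those of Cdc37l1 and Malat1 overlap at every day. The lowest depleted point of Tnni1 at P14 lies below the level of 3 reads.

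Few genes kept one direction through all 3 days. One fitted sign at all 3 days was found in 3751 genes (18.4%), with 2060 higher and 1691 lower. Of the 836 genes with p below 0.05, 449 (53.7%) had one sign at every day. Selection by the average over the same days favours one sign, so that this share cannot show a lasting difference. The libraries did not overlap at P1 in 693 genes (3.40%), at P7 in 334 (1.64%) and at P14 in 1049 (5.15%), and at 2 days or more in one direction in 33 genes (0.162%), 15 higher and 18 lower. Of these 33, 4 had a mean of at least 100 CPM, and they were named after their values were seen. Smg6, which encodes an endonuclease of nonsense-mediated decay, had a log2 fold change of 0.64 over all days (1.00, -0.13 and 1.25 at P1, P7 and P14). The neuronal membrane protein gene Astn2 was at 0.43 (0.02, 0.52 and 0.78), the histone demethylase-like gene Jmjd1c at 0.33 (1.08, -0.40 and 0.50) and the lipid phosphatase gene Inpp4b at -0.32 (-0.90, 0.42 and -0.62). Of these 4, only Astn2 kept one fitted sign at the 3 days. Among the other 29, Bcl6, a transcriptional repressor, was at -1.71 (-2.50, -0.38 and -2.49) and Egln3, an oxygen-sensing prolyl hydroxylase, at 1.41, with -1.21 at P1, 1.60 at P7 and 4.98 at P14. All 6 had an adjusted p of 1 in edgeR.

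The 3 days, which share no libraries, did not rank the genes alike. Across the 1798 genes of at least 100 CPM, the Spearman correlation of the log2 fold changes was -0.31 between P1 and P7, -0.15 between P1 and P14 and 0.19 between P7 and P14. Across all genes tested it was -0.06, -0.04 and 0.02. These describe genes, which share their libraries within a day and are not independent replicates. At an unadjusted p below 0.05 there were 1303 genes at P1 (6.40%), 791 at P7 (3.88%) and 2379 at P14 (11.7%). P1 and P7 shared 41 of these in one direction (3.15% of the P1 genes and 5.18% of the P7 genes) and 59 in opposite directions. P1 and P14 shared 92 in one direction and 98 in opposite ones, and P7 and P14 30 and 35. Called genes numbered 0 at P1 (0%), 0 at P7 (0%) and 47 at P14 (0.231%, 11 higher and 36 lower), and 28 of the 47 had 0 reads in one genotype at P14. These counts depended on the fit. At P14 there were 9 with a replicate block or edgeR's own filter, 116 with limma-voom and 651 with DESeq2, and 21 to 249 with a library left out (249 without P14 control replicate 2, 149 without P14 Casp2-depleted replicate 2 and 30 or fewer without any of 9 others). DESeq2 called 105 genes at P1 and 25 at P7, and limma-voom 49 at P1.

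**Figure D3:**
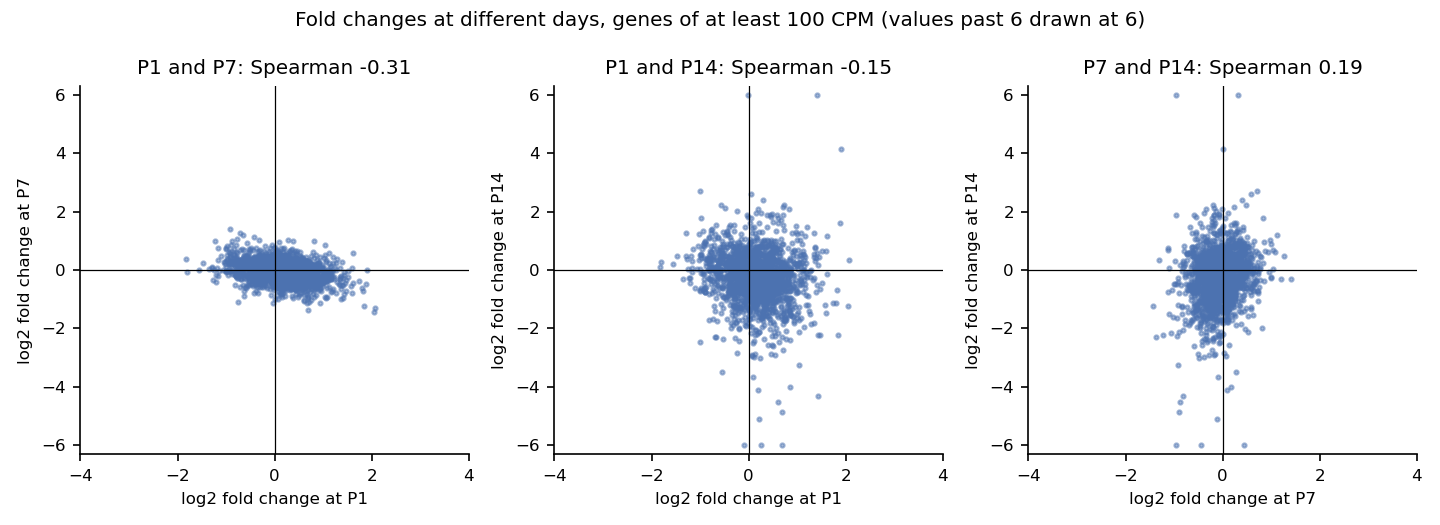
Log2 fold changes (Casp2-depleted over control) of the 1798 genes of at least 100 CPM, one day against another for each pair of days, with values beyond 6 drawn at 6. The cloud is tilted downward at P1 against P7 (Spearman -0.31) and tilted slightly upward at P7 against P14 (0.19).

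Abundant transcripts allowed the closest look at a lasting difference. Of the 1798 genes with at least 100 CPM, 766 were fitted higher and 1032 lower, and 16 (0.890%) had p below 0.05, 4 higher and 12 lower. Of these 16, 10 had one sign at every day: Grb10, Atp9b and Kat2b were higher, and Tcof1, Arhgap10, Mhrt, Abcf1, Arglu1, Zdhhc1 and Arid4a were lower. None had an adjusted p below 0.05 over all days in edgeR.

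Kat2b encodes the histone acetyltransferase PCAF. Its lowest, median and highest levels were 60.0, 150 and 283 CPM in control and 105, 283 and 374 CPM in depleted libraries, and the genotypes overlapped at every day. Its log2 fold change was 0.75 ± 0.38 (p = 0.0481, n = 10 and 11), with 1.07 at P1, 0.29 at P7 and 1.01 at P14. Atp9b, a phospholipid flippase-like ATPase, measured 10.6, 121 and 189 CPM in control and 62.0, 161 and 298 CPM in depleted libraries, a log2 fold change of 0.92. It was kept apart at P14 only, where control libraries held 17.0, 62.3 and 10.6 CPM and depleted ones 156, 84.5 and 161 CPM.

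Grb10, an imprinted adaptor that restrains insulin and growth factor signalling and declines in the heart after birth, varied widely between pools. At P1 it measured 64.4, 93.0 and 70.7 CPM in control and 488, 49.8, 92.1 and 507 CPM in depleted libraries. At P7 the ranges were alike, with 150, 134, 92.3 and 7.50 CPM in control and 151, 110, 72.9 and 53.4 CPM in depleted libraries. At P14 control libraries held 3.53, 0.750 and 0 CPM and depleted libraries 37.4, 42.2 and 1.97 CPM. The values overlapped at all 3 days. The log2 fold change over all days was 1.66 ± 0.59 (p = 0.00583, n = 10 and 11), made of 1.90, 0.02 and 4.16 by day. The P1 control library set aside by the study held 958 RPM of Grb10, above every other library.

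Among the lower genes, Tcof1 encodes treacle, a nucleolar protein needed for transcription of ribosomal RNA. It measured 397, 124 and 376 CPM in control and 36.2, 178, 175 and 207 CPM in depleted libraries at P1. At P14 it measured 206, 126 and 351 CPM against 67.7, 54.8 and 0 CPM. The genotypes did not overlap at P14 and overlapped at P1 and P7, and the log2 fold change was -1.04 ± 0.44 (p = 0.0182, n = 10 and 11). Arhgap10, a gene for a GTPase-activating protein, was at -0.86 ± 0.39 (p = 0.0302, n = 10 and 11). Mhrt, an lncRNA transcribed from the myosin heavy chain locus antisense to Myh7, had 2712, 10368 and 44926 CPM as its lowest, median and highest control levels and 3015, 6320 and 32727 CPM in depleted libraries. Its log2 fold change of -0.36 ± 0.17 (p = 0.0378, n = 10 and 11) was the smallest in size of the 16 genes, and limma-voom with TMM gave it the opposite sign (1.16, adjusted p = 0.00567). Reads of Mhrt and of the myosin genes it overlaps cannot be told apart without the strand.

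Bcl2, which encodes the founding anti-apoptotic protein of its family, had p below 0.05. It was 1 of the 24 tested genes of the list of caspases and apoptosis genes, a share of 4.17% against 4.10% over all genes. At P1 it measured 18.1, 35.2 and 42.9 CPM in control and 57.8, 53.3, 36.6 and 92.0 CPM in depleted libraries. At P7 it measured 61.7, 9.36, 26.2 and 75.0 CPM against 70.1, 68.2, 79.1 and 82.3 CPM, and at P14 3.53, 6.75 and 0 CPM against 12.7, 116 and 53.7 CPM. Only at P14 were the genotypes fully apart. The log2 fold change was 1.63 ± 0.72 (p = 0.0255, n = 10 and 11, adjusted p = 0.940 in edgeR), with 0.90, 0.80 and 4.12 by day. Of the 24, 10 were fitted higher and 14 lower, with a median of -0.08 beside 0.02 for all genes.

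No gene of the PIDDosome and the p53 network was called. Of 23 tested members 10 were fitted higher and 13 lower, none had p below 0.05, and the median log2 fold change was -0.35. Of the PIDDosome itself, Cradd was well covered, with a log2 fold change of 0.06 ± 0.50 (SE). Pidd1 was at -0.39 ± 1.64 from few reads and Ankrd26 at -0.41 ± 0.63. Both changed sign with a library left out (-1.35 to 1.54 for Pidd1 and -0.70 to 0.30 for Ankrd26). Downstream, Mdm2 measured 25.4 to 116 CPM in control and 0 to 81.7 CPM in depleted libraries, a log2 fold change of -0.64 ± 0.62. Its relative Mdm4, another inhibitor of p53, was at -0.88 ± 0.52. Trp53 was at -2.09 ± 1.84. All 6 had an adjusted p of 1 in edgeR.

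Cdkn1a, the p21 gene, was detected only at P7. Control libraries held 0, 10.8, 3.93 and 18.7 CPM there and depleted libraries 0.467, 0, 0 and 0 CPM, and all libraries of P1 and P14 were at 0. The sums were 46 reads in control and 1 in depleted libraries, and the log2 fold change of -2.43 ± 1.34 had an adjusted p of 1 in edgeR. The control library at 0 overlapped with the depleted ones.

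Cell cycle genes had no called member. In the list of mitosis and cytokinesis genes 26 of 38 were fitted higher and 12 lower, with a median of 0.35 and none with p below 0.05. By day the median was -0.05 at P1, 0.52 at P7 and 0.11 at P14. With a library of the day left out it ran from -0.55 (without Casp2-depleted replicate 1) to 0.07 (without control replicate 2) at P1, from 0.41 to 0.70 at P7 and from 0 (without control replicate 4) to 0.83 (without control replicate 2) at P14. The summed level of the list was 1288 to 1735 RPM in control and 798 to 1418 RPM in depleted libraries at P1. At P7 it was 1012 to 1238 RPM against 1460 to 1782 RPM, and at P14 731 to 1544 RPM against 1464 to 1832 RPM. The sums of the genotypes were thus apart at P7 and overlapped at P1 and P14, and their means stood the other way round at P1. Cdk1, the kinase that drives entry into mitosis, was at 4.03 ± 2.14, Aurka at 3.72 ± 2.14 and Cdc20, an activator of the anaphase-promoting complex, at 3.18 ± 1.81. These are rare transcripts: Cdk1 had reads at P1 in 2 of 4 depleted libraries and 0 of 3 controls, at 8.04 and 9.995 CPM, and at P7 the genotypes overlapped. At P14 Cdk1 had 84 reads in depleted libraries, at 17.6, 0 and 38.7 CPM, and 0 in control, at least 25.1-fold higher with an adjusted p of 0.418 in edgeR. The medians were 0.18 for 39 DNA replication genes, 0.09 for 32 centriole and centrosome genes and 0.00 for 34 regulators of the G1/S transition and ploidy. In these 4 lists only Cdkn2c had p below 0.05, which is 2.94% of its list of G1/S regulators and 0% of the others, against 4.10% over all genes. Cdkn2c is an inhibitor of the G1 cyclin-dependent kinases and had 50 reads in depleted and 0 in control libraries (at least 13.7-fold higher). It is one of the 343 genes without reads in one genotype, all of which had such a p.

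The text of the study names 12 genes as differing at P7, by limma, and reports that qRT-PCR in P7 CMs bore out Cdkn1a and Lin37. The average over 3 days given here is a different comparison. At P7 alone 50% of the 12 were fitted higher, with a median of 0.04. Only Sqle had an unadjusted p below 0.05 there (0 reads in control and 31 in depleted libraries), against 3.88% of all genes. The 12 genes were rare, with mean levels of 1.37 to 8.50 CPM over the libraries. Over all days 8 were fitted higher and 4 lower, and none had p below 0.05. Bin1, Gas5, Hes1 and Trim39 were fitted higher although their mean CPM was lower in depleted than in control libraries. Mad2l1 was fitted lower although its mean was higher. Sqle, Trim39 and E2f8 changed sign with a library left out. Several of the 12 differed in sign between days. The mitotic transcription factor gene Foxm1 was at 1.36 ± 1.40. Bin1, a membrane-bending adaptor gene, was at 2.30 ± 2.15. It was at least 2.10-fold higher at P1 (0 reads in control), at 3.78 at P7 and at least 35.3-fold lower at P14 (0 reads in depleted libraries). Its mean level was lower in depleted (3.29 CPM) than in control libraries (6.93 CPM), against the fitted sign. That sign changed with all 24 libraries, with averaged group means and without P7. The Notch target Hes1 was at 1.00 ± 1.79, with -1.01 at P7 and reads in 1 of 6 libraries at P14, 44.4 CPM in a depleted one. The growth arrest lncRNA Gas5 was at 0.74 ± 1.74, at least 4.83-fold higher at P1 (0 reads in control) and at -1.05 at P7. Dusp8 was at -1.54 ± 2.47. With a library left out the values of Gas5 (-0.25 to 1.24), Dusp8 (-4.49 to 0.43) and Hes1 (-0.64 to 1.68) changed sign. Those of Foxm1 ran from 0.59 to 2.82 and those of Bin1 from 0.44 to 3.02.

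Lists of CM function had medians that differed more by day than over all days. Of 43 tested sarcomere genes 17 were fitted higher and 26 lower over all days, with a median of -0.24. By day, 79.1% of them were fitted higher at P1, 16.3% at P7 and 32.6% at P14, with medians of 0.51, -0.50 and -0.39. Of 41 fatty acid metabolism genes 78.0% were fitted higher at P1, 17.1% at P7 and 34.1% at P14 (medians of 0.57, -0.47 and -0.41). The 60 splicing genes gave 86.7%, 20% and 21.7%, with medians of 0.76, -0.27 and -0.65 (genes without reads in one genotype set to their bound). The 15 CM markers had medians of 0.51, -0.26 and -0.53, which became -0.16 at P1 without Casp2-depleted replicate 4 and 0.30 at P14 without control replicate 1. Over all genes tested the same medians were 0.03, -0.01 and 0. Single libraries weighed on these values. Without P1 Casp2-depleted replicate 4 the sarcomere median at P1 was -0.10, and without P14 control replicate 1 it was 0.32 at P14. Among the libraries used at their day, both had the lowest share of uniquely placed reads on no gene (36.8% and 63.7%). They also had the highest share of reads on the 10 most-read genes (20.8% and 14.1%). Without the same libraries the fatty acid median was 0.06 at P1 and 0 at P14. The splicing median, which is 0.80 at P1 and -0.69 at P14 where genes at 0 reads keep their fitted values, was 0.37 and 0 on that scale. At P7 the sarcomere median lay between -0.81 and -0.29 with any P7 library left out, while the splicing median was -0.07 without Casp2-depleted replicate 4 and that of the CM markers -0.03 without control replicate 2.

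**Figure D4:**
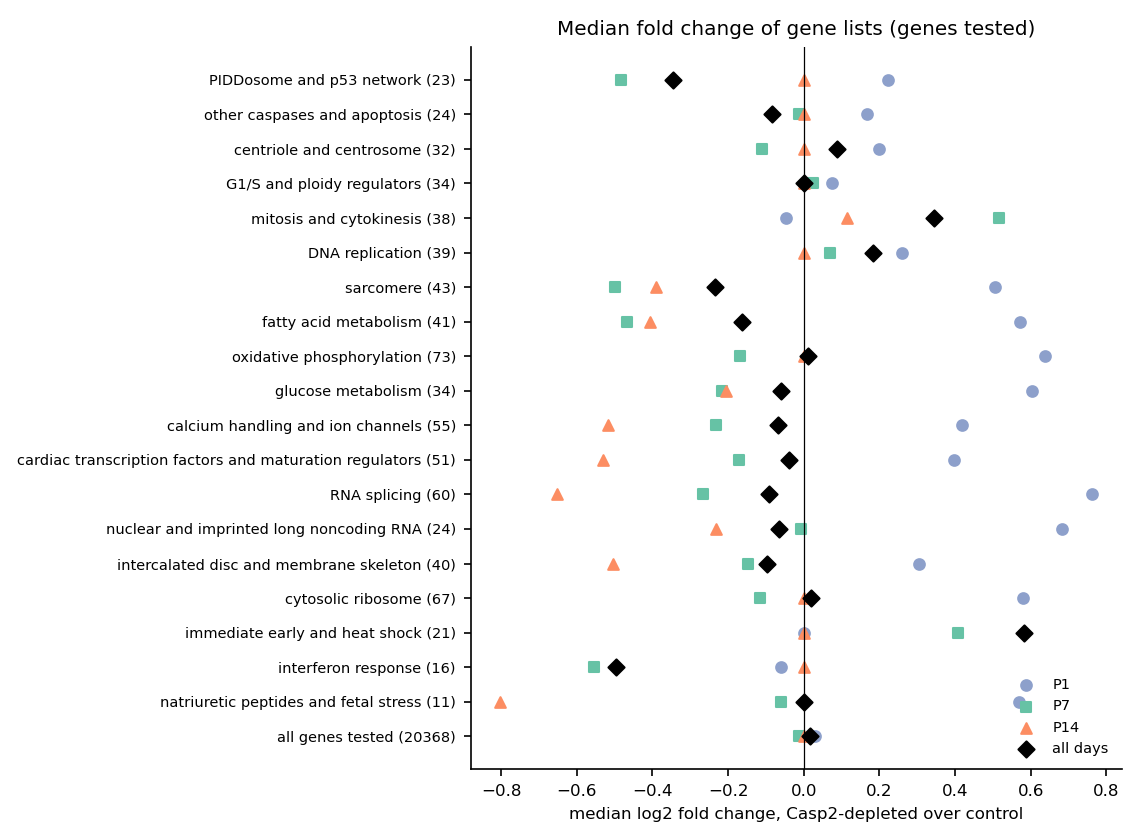
Median log2 fold change (Casp2-depleted over control) of 20 gene lists at P1, P7, P14 and over all days, with genes lacking reads in one genotype set to their bound. For the sarcomere, fatty acid and splicing lists the P1 median lies above 0 and the P7 and P14 medians below it, and the medians over all days lie near 0.

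Single abundant CM transcripts had such values too. Mybpc3, which encodes cardiac myosin-binding protein C, measured 285, 2659 and 2677 CPM in control and 2327, 870, 1002 and 6440 CPM in depleted libraries at P1. At P7 it measured 6106, 13543, 8502 and 6633 CPM against 6733, 4602, 5419 and 2620 CPM, and at P14 2368, 459 and 257 CPM against 721, 293 and 309 CPM. Values overlapped at each day, and the log2 fold changes were 0.51, -0.84 and -1.22, which averaged to -0.53 ± 0.27 (p = 0.0539, n = 10 and 11). Ryr2, the calcium release channel of the sarcoplasmic reticulum, was at -0.31 ± 0.18 (0.14, -0.26 and -0.88 by day) and Ttn, the titin gene, at -0.24 ± 0.23 (0.62, -0.71 and -0.53). These 3 had an adjusted p of 1 in edgeR. Limma-voom with TMM gave the opposite sign to Ttn (2.70, adjusted p = 0.00109) and to Mybpc3 (0.07). With quantile normalization it gave the opposite sign to Ttn and to Ryr2 (0.15).

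In the sarcomere list 2 of 43 genes had p below 0.05, both fitted higher, a share of 4.65% against 4.10% over all genes. Tnni1, the slow skeletal troponin I of the fetal heart, had similar levels in both genotypes at P1 and P7. At P1 the values were 610, 1267 and 917 CPM in control and 679, 927, 609 and 1487 CPM in depleted libraries. At P7 they were 691, 564, 357 and 464 CPM against 581, 982, 598 and 425 CPM. At P14 all 3 control libraries were at 0 and the depleted ones at 43.7, 3.15 and 0.655 CPM, a level at least 20.3-fold higher. That bound rests mostly on Casp2-depleted replicate 2, and 0.655 CPM lies below the level of 3 reads (1.40 to 2.38 CPM). The P14 libraries set aside by the study, with few detected genes, were both at 0. The log2 fold change of Tnni1 over all days was 0.99 ± 0.42 (p = 0.0190, n = 10 and 11). Myl7, the atrial myosin light chain, had 5 reads in control and 126 in depleted libraries and was at 4.47 ± 2.17 (p = 0.0421, n = 10 and 11). Its depleted reads lay in 3 libraries, and its log2 fold change ran from 2.51 to 6.10 with a library left out. Of 11 genes of the natriuretic peptide and fetal stress list 6 were fitted higher and 5 lower over all days, with 90.9% higher at P1, 45.5% at P7 and 18.2% at P14, against 52.4%, 48.1% and 43.7% of all genes tested. The fitted median of the list was 1.07 at P1 and -0.80 at P14. With genes lacking reads in one genotype set to their bound it was 0.57 at P1. The fitted median was 0.25 without P1 Casp2-depleted replicate 4 and 0 without P14 control replicate 1.

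Other lists of CM function had medians near 0 over all days. Oxidative phosphorylation (73 genes, median 0.01), glucose metabolism (34 genes, -0.06), calcium handling and ion channels (55 genes, -0.07), cardiac transcription factors (51 genes, -0.04) and the intercalated disc (40 genes, -0.10) had no member with p below 0.05. Their medians too were above 0 at P1 (0.64, 0.60, 0.42, 0.40 and 0.30) and below 0 at P7 (-0.17, -0.22, -0.23, -0.17 and -0.15), and at P14 they were 0, -0.21, -0.52, -0.53 and -0.50. Single libraries moved these medians as well. Without P14 control replicate 1 those of glucose metabolism, calcium handling and cardiac transcription factors were 0 at P14 and that of the intercalated disc 0.05. Without P1 Casp2-depleted replicate 4 the median of the transcription factors at P1 was 0.02. At P7 the oxidative phosphorylation median was 0.07 without control replicate 1, and without Casp2-depleted replicate 4 those of the transcription factors and the intercalated disc were 0.01. The cytosolic ribosome list had 3 of 67 (4.48%, against 4.10% over all genes), Rps19 higher and Rpl22 and Rpl10 lower. The list of immediate early and heat shock genes had 5 of 21 (23.8%, against the same 4.10%), 3 higher and 2 lower. Fos had 50 reads in depleted and 0 in control libraries (at least 13.7-fold higher), at 10.3 and 17.9 CPM in 2 P7 pools and 1.01 CPM in 1 P1 pool, and like every gene without reads in one genotype it had such a p. The other members include Fosl2 at -3.30 ± 1.41 and the chaperone gene Hsph1 at -4.79 ± 1.98. Of 16 interferon response genes 5 were fitted higher and 11 lower (median -0.50). The fitted median by day was -0.06 at P1, -0.79 at P7 (-0.55 at the bounds) and 0 at P14. At P7 it was 0.09 without control replicate 3. Usp18, which removes the ubiquitin-like ISG15 from proteins, had 224 reads in control and 1 in depleted libraries (p = 0.00244, n = 10 and 11), and of its control levels 2 stood out, 39.7 CPM in one P1 pool and 124 CPM in one P14 pool.

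Psma4, a proteasome subunit gene, was at -0.94 (-0.54, 0.28 and -3.47 by day), and ENSMUSG00000115610 was at -0.93 ± 0.35 (p = 0.00843, n = 10 and 11). It measured 295, 2089 and 1728 CPM in control and 2011, 359, 444 and 3169 CPM in depleted libraries at P1, and 2018, 161 and 286 CPM against 251, 25.2 and 60.9 CPM at P14. The genotypes overlapped at both days, and the log2 fold changes were 0.13, -0.50 and -2.87 at P1, P7 and P14.

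Malat1, an abundant nuclear lncRNA, had p = 0.0136 (n = 10 and 11) over all days with a log2 fold change of -0.56 ± 0.22 and an adjusted p of 0.720 in edgeR. That adjusted p depended on the fit: it was 4.75e-15 without a filter, 1.71e-08 with a replicate block and 0.000324 with averaged group means, at log2 fold changes of -0.54, -0.53 and -0.61, and between 0.152 and 1 in the other alternatives. By day the log2 fold changes were 0.30, -0.39 and -1.75. At P14 it measured 28519, 2551 and 6063 CPM in control and 6290, 1478 and 3295 CPM in depleted libraries. Without P14 control replicate 1, the library with 28519 CPM, the log2 fold change over all days was -0.11. The values overlapped at each day. The fitted standard error at P14, 0.21, was small beside this spread between pools, so the p-values of Malat1 do not measure that spread. In the P14 libraries set aside by the study, which detected few genes, Malat1 held 22044 RPM in control and 27751 RPM in the depleted library.

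Rnf11, a ubiquitin ligase adaptor gene named after its values were seen, had reads in 6 of 10 control and in all 11 depleted libraries. Its lowest, median and highest levels were 0, 2.11 and 39.7 CPM in control and 9.83, 44.0 and 129 CPM in depleted libraries, which overlapped. The log2 fold change was 2.56 ± 0.98 (p = 0.0105, n = 10 and 11).

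Whether a genotype difference itself differed between days was tested by an interaction term, and 13 genes passed at an adjusted p below 0.05 (0.0638% of genes, edgeR quasi-likelihood test). The smallest adjusted p belonged to Cdc37l1, a relative of the Hsp90 co-chaperone Cdc37, at 6.87e-13. It measured 391, 37.5 and 0 CPM in control libraries at P14 and 0 in all 3 depleted ones, at least 224-fold lower, while at P1 and P7 the log2 fold changes were 0.68 and -0.96. In the P14 libraries set aside by the study Cdc37l1 was at 294 RPM in the depleted library and at 0 in the control library, which detected 2049 genes. Malat1 (8.79e-08) and Tnni1 (6.75e-06) followed, and then Ivns1abp, a kelch protein gene, which had 0 reads in all P14 controls and 12.7, 0 and 22.9 CPM in depleted libraries. The others reported here were 5430431A17Rik, the DNA ligase gene Lig1, ENSMUSG00000115610, the growth factor gene Pdgfa, Spaca6, the Golgi mannosidase gene Man2a2, the Z-disc gene Myoz2 and the splicing factor gene Hnrnpl. These are differences of P14: without that day 0 genes passed. Their p-values rest on the fitted dispersion and can be smaller than the spread between pools allows. The P14 values of Cdc37l1 and Malat1 overlapped between the genotypes. With the replicate number as a replicate block 3 passed, Cdc37l1, Tnni1 and Ivns1abp, while Malat1 had an adjusted p of 0.916, Lig1 0.687 and 5430431A17Rik 0.733. In Lig1, Myoz2, Hnrnpl and Spaca6 the P14 difference rested on P14 control replicate 1, at 61.5, 132, 115 and 35.3 CPM, with every other P14 library at 0. Cdc37l1 and Ivns1abp passed when each of the 21 libraries was left out in turn, while Malat1 was lost without P14 control replicate 1 (adjusted p = 0.624) and Tnni1 without P14 Casp2-depleted replicate 2 (0.241).

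**Figure D5:**
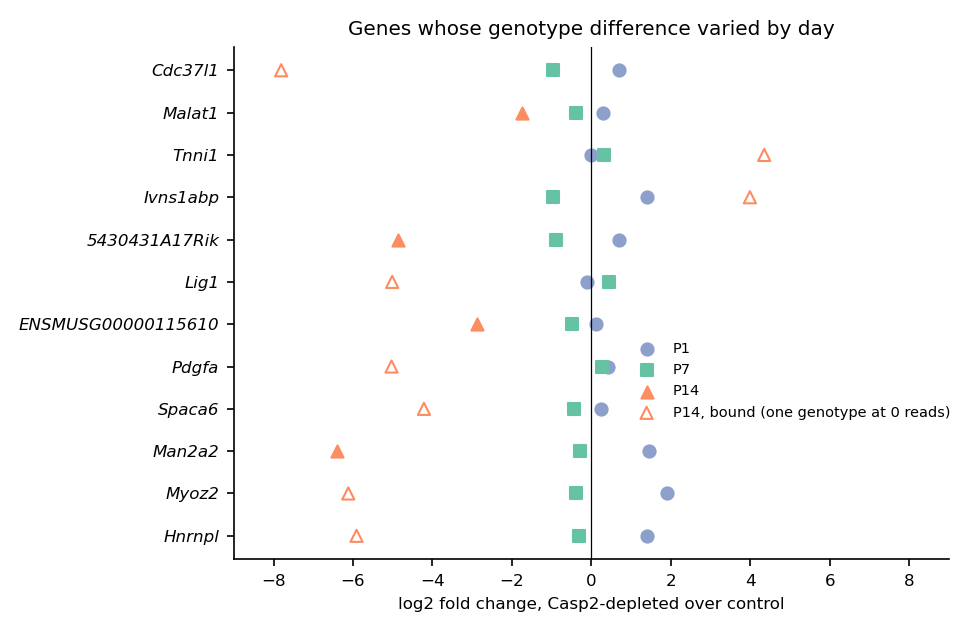
Log2 fold changes (Casp2-depleted over control) at P1, P7 and P14 of 12 of the 13 genes with an interaction of genotype and day. Open triangles mark P14 values that are bounds because one genotype had 0 reads. The P14 values lie farthest from 0, lower for Cdc37l1 and higher for Tnni1 and Ivns1abp, and the P1 and P7 values lie nearer 0.

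The sex-linked genes depend on the sex makeup of the pools, but at their low levels 0 reads do not show that a sex was absent. The 4 Y-linked genes together held 0, 73.0 and 176 RPM as the lowest, median and highest control values and 17.5, 119 and 241 RPM in depleted libraries. At P1 they did not overlap, with 74.8 to 90.0 RPM in control and 119 to 241 RPM in depleted pools. Over all days Ddx3y was at 1.64 ± 1.09, Uty at 0.69 ± 0.70, Kdm5d at -0.05 ± 1.22, Eif2s3y at -0.02, and Xist, the RNA of the inactive X chromosome, at -0.42 ± 0.61, each with an adjusted p of 1 in edgeR. No standard error over all days is given for Eif2s3y, as its computation fails so near 0. By day Eif2s3y was at 1.01 ± 2.22 at P1, at 1.05 ± 2.03 at P7 and at least 4.46-fold lower at P14 (0 reads in depleted libraries). By day Xist was at 2.05, -1.43 and -1.24 (adjusted p of 0.680, 1 and 0.492), with overlapping values at every day. The part of the sex makeup of the pools in the values above was not tested.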

How the data were processed

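PCM1-sorted CM nuclei were profiled by QuantSeq 3′ FWD sequencing. The authors deposited raw read counts per gene, 1 file a library. Per the submitters' processing notes they used FastQC 0.11.8, cutadapt 4.0, STAR 2.6.1e and HTSeq 2.0.3, and counted over whole genes, exons and introns. Counting by strand and the use of molecular identifiers are not given in the sources used here, and intervals and floors cover counting error only. Of 56923 identifiers 56236 had a name in the annotation used here (99.5% of reads).

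Genes entered the test with 10 or more reads over the 21 libraries and a read in 3 or more of them, and were tested with edgeR 4.0.16 in R 4.3.3 (TMM factors, quasi-likelihood F-test, day and genotype as terms, 17 residual degrees of freedom, Benjamini-Hochberg adjustment). CPM values use TMM-scaled library sizes, and list sums and values of libraries left out are in RPM of reads on genes. Days were compared in a fit of 6 groups (15 residual degrees of freedom) and by an interaction term. Alternatives used DESeq2 1.42.0, limma 3.58.1, other filters and scalings, thinning, further terms, other blocks, and libraries or days left out. The study used limma. Tables and permutation tests used Python 3.11.15, numpy 2.4.6, pandas 2.3.3 and scipy 1.17.1, and the fits were tested on simulated data. P-values measure the spread between pools.

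The comparison and the gene lists were chosen with earlier results of these data known. Genes named were the 8 with the smallest p in each direction, the 6 in each direction at a mean of at least 100 CPM, those whose genotypes did not overlap at any day, the 6 with the smallest interaction p, genes of the PIDDosome and sex-linked genes, the 12 genes named in the study's text, and for each list the 3 members with the smallest p and the most abundant one. Other genes were named after their values were seen, among them the other interaction genes, those that did not overlap at 2 days, the other abundant genes of one sign, and genes called in an alternative. A few genes that these rules name are not reported here.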

Additional observations from a re-analysis of the deposited data

Results flagged for a closer look

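Among the 87 groups of 4 to 10 libraries examined for one value far from the rest, 6 had one, and chance gives about 1 in 20. P7 Casp2-depleted replicate 1 stood apart in 3 of them: its share of reads on mitochondrially encoded genes was 0.260%, it had 4676 CPM of ENSMUSG00000115610, and it had 603 CPM of Ivns1abp. In A330032B11Rik the 58.3 CPM of P1 Casp2-depleted replicate 1 lay apart from the other depleted P1 libraries. In Gm6133 it was the 0.655 CPM of P7 control replicate 3. That is 1 read, below the 3 reads that a library with no read still allows, so this flag carries no weight. In Fhod3, a formin of the sarcomere, it was the 9242 CPM of P7 control replicate 2.

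The genotype difference differed between days in 13 genes by the interaction test (edgeR). Of these, 12 are given here. The adjusted p was 6.87e-13 for Cdc37l1, 8.79e-08 for Malat1, 6.75e-06 for Tnni1, 0.00109 for Ivns1abp, 0.00255 for 5430431A17Rik and for Lig1, and 0.00911 for ENSMUSG00000115610. It was 0.0173 for Pdgfa, 0.0216 for Spaca6, 0.0339 for Man2a2, 0.0430 for Myoz2, and 0.0494 for Hnrnpl. When each library was left out in turn, Hnrnpl and Myoz2 passed in 5 of 21 fits each and Man2a2 in 7. With a replicate block only Cdc37l1, Tnni1 and Ivns1abp passed.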

How the results depend on the processing

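The absence of called genes over all days held in 15 of 19 alternatives and with each library left out (0 in all 21). DESeq2 called 2 genes, Gm9871 (log2 fold change of -6.73) and Gm6133 (5.81). Limma-voom with TMM called 2, Ttn (2.70) and Mhrt (1.16), both opposite in sign to edgeR, and gave Fhod3 0.42, also opposite. With quantile normalization it called 1, Rnf11 (4.45), and gave Cacna1c 0.49, opposite. Averaging the group means equally over the days called 7, Ivns1abp and Tnni1 higher and Cdc37l1, Gm9871, Spaca6, 5430431A17Rik and ENSMUSG00000115610 lower. Genes at an unadjusted p below 0.05 numbered 369 with filterByExpr, 1447 without a filter, 1684 with averaged group means and 281 with a replicate block within day (chosen after seeing the data), and 772 to 899 with a library left out. Interaction genes numbered 2 with filterByExpr, 29 with DESeq2, 5 without P1, 5 without P7, 0 without P14 and 5 to 52 with a library left out (52 without P14 control replicate 2). At P1 DESeq2 called 105 genes and limma-voom 49, and at P7 DESeq2 called 25. At P14 there were 9 with filterByExpr, 651 with DESeq2, 116 with limma-voom and 21 to 249 with a library left out (249 without P14 control replicate 2). One sign at all days held for 3575 to 4132 genes, and 1 to 2 genes did not overlap at any day (2 without P14 control replicate 4), against 0 if all 24 libraries were used. The causes were not tested.

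Same-numbered libraries deviated together in 6 of 9 pairs (correlation above 0.1, in all 4 pairs of P7, 2 of 3 of P1 and 0 of 2 of P14; range -0.23 to 0.52), and not every sample correlated best with its own number, so the number was not taken as a pairing. With the replicate number as a replicate block 0 genes were called over all days, although Malat1 had an adjusted p of 1.71e-08 at a log2 fold change of -0.53, 3 interaction genes passed and 9 genes were called at P14. Of 134 named genes, 87 kept one sign in all alternatives and 47 did not. Those that did not include the abundant Ttn, Ryr2 and Mhrt. The rare genes have reads in few pools, and the part of sequencing depth in this was not tested.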
